A study of Mus musculus with 2 samples.

Results

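The WNT, R-spondin and beta-catenin pathway was described in the adrenal gland through 55 protein-coding genes, taken by symbol from the 21474 protein-coding genes in the tables. They are all Wnt, Fzd, Rspo, Dkk and Lgr4 to Lgr6 genes, with Lrp5, Lrp6, Znrf3, Rnf43, Kremen1, Ctnnb1, Apc, Axin1, Axin2, Lef1, Tcf7, Tcf7l1, Tcf7l2, Porcn and Wls. The choice used names and no measured value. The tissue was whole adrenal gland from C57BL/6J mice aged 8 weeks, of mixed sex and from the same litter, and the labels used here name no treatment and no altered allele. There was 1 group with 2 libraries, replicates 1 and 2, which are labelled as biological replicates under the same donor identifier, with the sex of each not recorded. The 2 libraries were read stranded and in pairs of 76 nt from poly(A) RNA longer than 200 nt, and their mouse genes held 47615328 and 52890686 expected counts. With 1 group there was no comparison between conditions, so levels are descriptions, and a ratio between the libraries shows how far replicates departed.

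WNT proteins are secreted ligands that bind Frizzled receptors together with Lrp5 or Lrp6. Without them a destruction complex built on Axin and Apc marks beta-catenin for degradation, and with them beta-catenin enters the nucleus and works with Lef/Tcf factors. R-spondins bind Lgr receptors and keep the ligases Znrf3 and Rnf43 from removing Frizzled from the cell surface. In the mouse adrenal cortex this pathway is known from the outer zone, with Rspo3 made by the capsule and Wnt4 by the zona glomerulosa.

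Both libraries carried markers of the capsule, the cortex and the medulla. The summed level of the 5 capsule markers was 209 and 227 TPM (a deposited unit of level that is scaled for transcript length and depth) in replicates 1 and 2, that of the 6 glomerulosa markers 332 and 375 TPM with Oprk1 at 0 in both, and that of the 3 fasciculata markers 1521 and 2373 TPM. The 5 chromaffin markers summed to 3890 and 3586 TPM. Single markers within a sum went opposite ways. Of the chromaffin markers, Chgb was at 290 and 147 TPM and Pnmt at 381 and 593 TPM. Of the glomerulosa markers, Shh was at 59.35 and 34.94 TPM and Dab2 at 127 and 178 TPM. The libraries stood apart in tissue from outside the gland and in sex-linked genes. The 6 adipose markers summed to 14603 and 6437 TPM, the 3 stomach markers to 43.5 and 2.01 TPM, and the 4 liver markers to 4.40 and 29.8 TPM with Ttr at 0 in replicate 1. The 5 endothelial markers summed to 796 and 692 TPM, the 4 Schwann and glial markers to 17.1 and 10.5 TPM, and the 4 lymphocyte markers to 2.85 and 3.42 TPM with Cd3g at 0 in replicate 2. The Y-linked Kdm5d had 221 counts in replicate 1 and 0 in replicate 2, and the X-inactivation RNA Xist had 3401 and 8376 counts. In whole tissue, fewer cells of a type and less RNA per cell cannot be told apart.

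Of the 55 genes, 39 reached 1 TPM in both libraries, which is 70.9% against 54.6% of all protein-coding genes. The median level was 9.54 TPM over the 55 genes and 2.11 TPM over protein-coding genes, and among detected genes it was 17.6 and 16.1 TPM. The 55 genes summed to 1020 TPM in replicate 1 and 1137 TPM in replicate 2, or 0.103% and 0.115% of the TPM of mouse genes. The 5 members Wnt3a, Wnt7a, Wnt8a, Rspo2 and Dkk4 had 0 counts in both libraries. A count of 0 allows up to 3 counts, which for these genes corresponds to between 0.0260 and 0.0838 TPM.

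**Figure D1:**
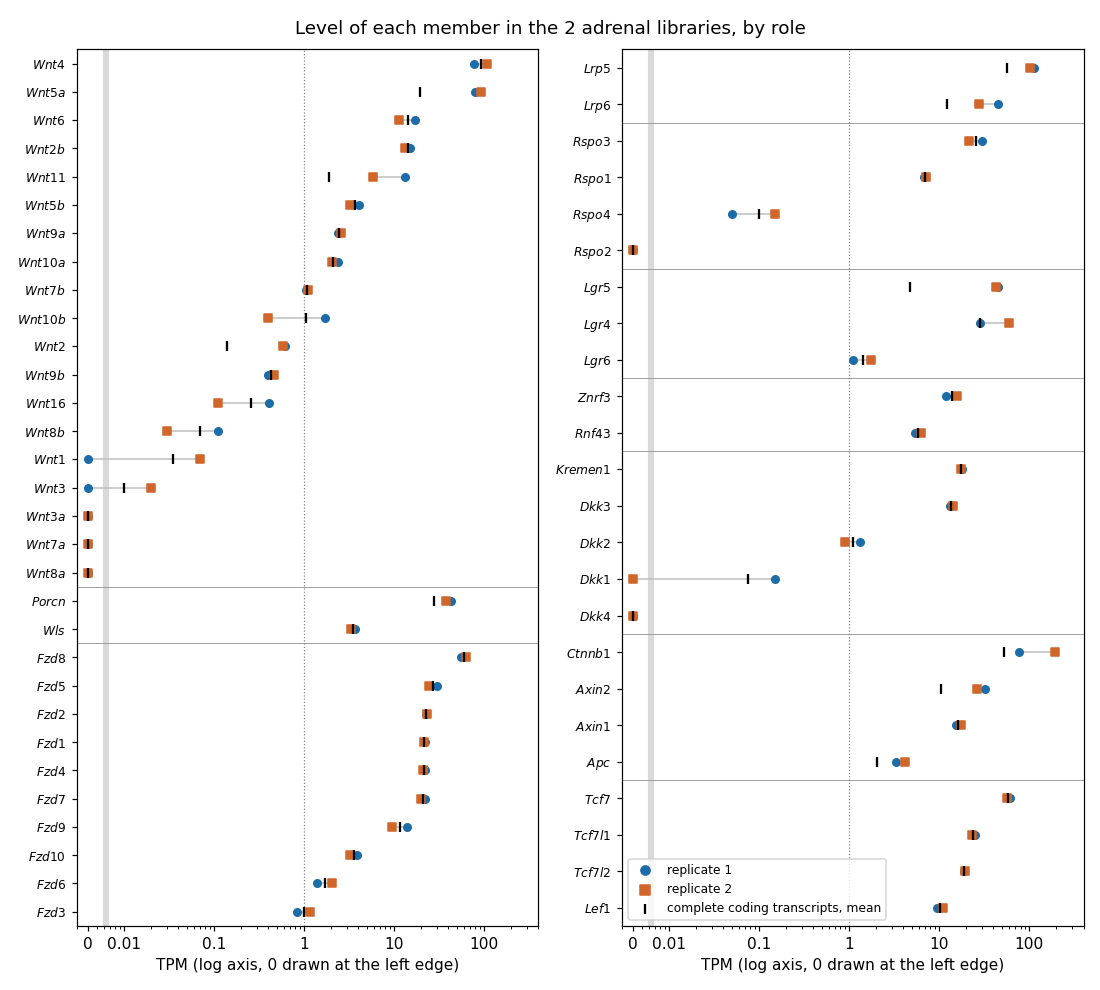
TPM of the 55 genes in replicate 1 (circles) and replicate 2 (squares) on a log axis, in blocks by role from Wnt ligands and secretion through Frizzled and Lrp receptors, R-spondins, Lgr receptors, ligases, Kremen1 with Dkk antagonists, and beta-catenin with its destruction complex to Lef/Tcf factors, with the mean of complete coding transcripts as a bar; the dotted line is 1 TPM. Most members lie close together in both libraries, while Wnt5a, Wnt11, Wnt2, Lgr5, Lrp5, Lrp6, Axin2, Apc and Ctnnb1 have a mean coding level well below the gene level, at most 54.3% of it.

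The level of a gene adds up all its annotated transcripts, and short ones weigh heavily in a level per length. Of the 39 detected genes, 27 have more than 1 transcript, and 21 kept their leading transcript from library to library, with a median share of 77.8% of the gene's TPM over the 27. The leading transcript was not a complete coding one in both libraries for Wnt5a, Wnt11 and Lgr5, and in 1 library for Lrp5, Lrp6 and Ctnnb1. Complete coding transcripts, those with an annotated start and end of the coding part, were therefore added up separately for every member after the values had been seen. They summed to 755 TPM on average, against 1078 ± 82.5 TPM (SD, n = 2) for the genes. How reads of shared exons are divided between transcripts is the authors' estimate.

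**Figure D2:**
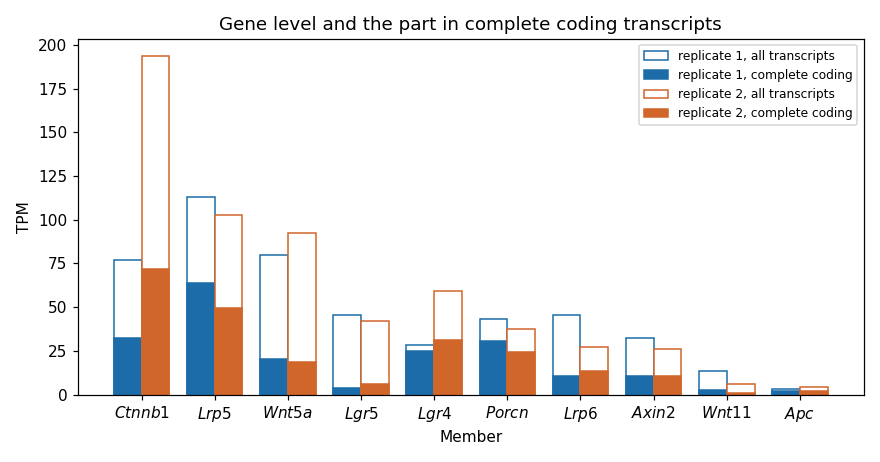
TPM of 10 detected members whose complete coding transcripts hold under 90% of the gene's TPM, in replicate 1 (blue) and replicate 2 (orange), with all transcripts as open bars and complete coding transcripts as filled bars. Lgr5 is at 45.5 and 42.2 TPM by gene and at 3.64 and 5.81 TPM by complete coding transcripts, and Ctnnb1 stays higher in replicate 2 on either measure.

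By scaled counts, beta-catenin was the only member at least 2-fold higher in replicate 2, or 2.22% of the members tested beside 2.85% of all genes. Another 3 members, all at lower levels, were at least 2-fold higher in replicate 1. By TPM, Lgr4 was also over 2-fold apart, at 28.5 and 59.0 TPM. Ctnnb1 (ENSMUSG00000006932.12, mm10 chromosome 9, 120929216 to 120960507, plus strand), which encodes beta-catenin, had 77.1 TPM in the first library and 194 TPM in the second, with 7261 and 18780 counts. By gene level it was the highest member in replicate 2, where it lay above Wnt4 at 107 TPM and Lrp5 at 103 TPM, but not in replicate 1, where Lrp5 at 113 TPM and Wnt5a at 80.1 TPM were higher and Wnt4 was level with it at 77.2 TPM. By complete coding transcripts Ctnnb1 was at 32.2 and 71.8 TPM and lay below Wnt4 in both libraries. The log2 ratio of replicate 1 over replicate 2 was -1.22, with a 95% interval of -1.26 to -1.18. The complete coding transcript alone gave -1.10, with an interval of -1.16 to -1.05. Intervals of ratios between the libraries are exact binomial (Clopper-Pearson) ones and cover counting error only, and 1 library on each side leaves no replicated test. Fasciculata and liver markers were higher in replicate 2 as well, and adipose and stomach markers lower. The Y-linked Kdm5d, Eif2s3y and Ddx3y had counts in replicate 1 only. The part of these library differences in that of Ctnnb1 was not tested.

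Most Ctnnb1 reads were assigned to 3 transcripts that part after exon 10. Ctnnb1-201, the coding transcript with 15 exons, held 3843 counts in replicate 1 and 9168 in replicate 2. Ctnnb1-209, annotated as a retained intron, has 10 exons and runs on past the end of exon 10, and it held 2342 and 9538 counts. Ctnnb1-208, annotated as a target of nonsense-mediated decay, held 997 counts in replicate 1 and 0 in replicate 2. The following sequences are shown because the 3 transcripts part there. Each starts with the last 30 bases of exon 10 in lower case, at chr9:120955943-120955972, followed in capitals by the next 30 bases of the transcript, all on the plus strand of mm10.

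Ctnnb1-201: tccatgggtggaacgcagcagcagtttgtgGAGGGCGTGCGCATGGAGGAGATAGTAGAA

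Ctnnb1-208: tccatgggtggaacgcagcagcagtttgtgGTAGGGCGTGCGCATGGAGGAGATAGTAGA

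Ctnnb1-209: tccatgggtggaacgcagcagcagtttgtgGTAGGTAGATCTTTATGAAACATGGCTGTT

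Ctnnb1-201 skips 1134 bases of intron and continues with exon 11 at chr9:120957107-120957226. Ctnnb1-208 keeps 4 more bases at the end of exon 10 and lacks the first 3 of exon 11. Read on from the start codon of Ctnnb1-201, it meets a stop after 607 codons, compared with 781 codons in Ctnnb1-201. Ctnnb1-209 continues into the intron for 475 bases, and in the same frame its first stop, tga, lies 15 bases into the intron, after 566 codons. Of its length, 1884 bases lie inside exons of Ctnnb1-201, so that reads inside that stretch fit both transcripts.

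By TPM, Ctnnb1-209 took 40.4% of the gene in replicate 1 and 61.0% in replicate 2, while Ctnnb1-201 took 41.8% and 37.1%. The leading transcript of the gene therefore differed between the libraries. The deposited posterior mean counts, which carry the authors' own spread of the split, were 2335 with a posterior SD of 101 and 9528 with 132 for Ctnnb1-209. For Ctnnb1-208 they were 1036 with 189 and 85 with 80, and the posterior SD in replicate 2 is nearly as large as the mean. Both main transcripts were higher in replicate 2, with a log2 ratio of -1.10 for Ctnnb1-201 and -1.87 for Ctnnb1-209, the latter with an interval of -1.94 to -1.81.

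**Figure D3:**
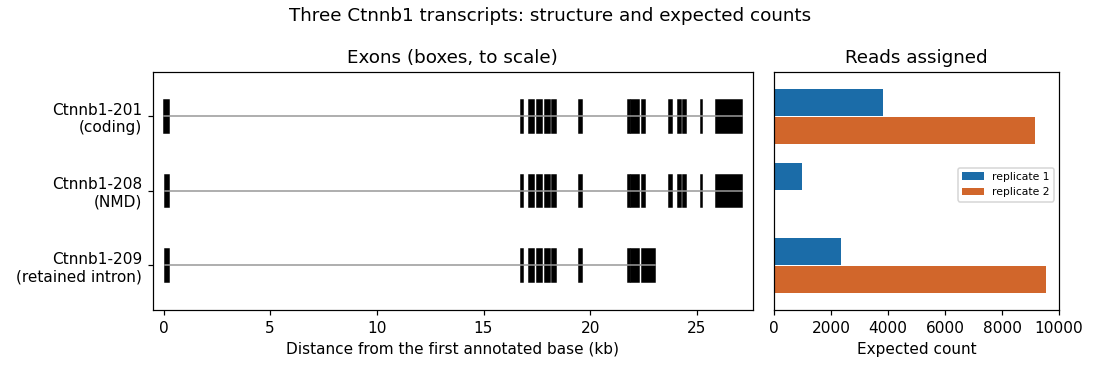
Exons of 3 Ctnnb1 transcripts against distance in kb from their first annotated base (left), and the expected count assigned to each in replicate 1 (blue) and replicate 2 (orange; right). Ctnnb1-209 ends in the intron after exon 10, and its count was 2342 in replicate 1 and 9538 in replicate 2.

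The remaining members of the destruction complex differed less. Axin1, a scaffold of the complex, was at 15.2 and 17.4 TPM and almost wholly in 1 coding transcript. Apc, the other scaffold, was at 3.33 and 4.16 TPM. Axin2, a scaffold that is also a target of the pathway, was at 32.4 and 26.3 TPM by gene but at 10.5 and 10.7 TPM in complete coding transcripts. The order of the Axin genes turned with this choice, as Axin2 exceeded Axin1 by 2.13-fold and 1.51-fold by gene, and was 0.690 and 0.613 of Axin1 by complete coding transcripts. Short or partial Axin2 transcripts of 692 to 2045 nt held the rest of the Axin2 level, with Axin2-205 at 8.98 and 5.60 TPM and Axin2-203 at 5.76 and 6.51 TPM.

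Of the 19 Wnt ligand genes, 9 were detected. Wnt4 (ENSMUSG00000036856.4, mm10 chromosome 4, 137277489 to 137299726, plus strand), a ligand known from the zona glomerulosa, has a single transcript and was at 77.2 and 107 TPM. Wnt5a, a ligand best known for signalling without beta-catenin, was at 80.1 and 92.4 TPM. On this measure the 2 ligands could not be ordered, since Wnt4 was lower in replicate 1 and higher in replicate 2. The transcript Wnt5a-204, 2 exons and 337 nt with no coding part, took 74.7% and 80.0% of the Wnt5a level with 293 and 414 of its counts. The coding Wnt5a-201 held 4809 and 4684 counts and stood at 20.3 and 18.5 TPM. By complete coding transcripts Wnt4 exceeded Wnt5a by 3.80-fold in replicate 1 and 5.77-fold in replicate 2, and it made up 53.2% and 66.3% of the TPM of Wnt ligands.

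The next ligands were well below both by gene level. Wnt6 was at 17.2 and 11.4 TPM and Wnt2b, which can signal through beta-catenin, at 15.2 and 13.1 TPM. Wnt11, mostly known for signalling without beta-catenin, was at 13.2 and 5.85 TPM. Its level came chiefly from the partial transcript Wnt11-203, at 8.50 and 3.33 TPM, and its complete coding level was 2.58 and 1.18 TPM. Wnt5b, Wnt9a, Wnt10a and Wnt7b lay between 1.05 and 4.12 TPM in both libraries. Wnt5b overlaps Fbxl14 on the opposite strand, which had 10388 and 10642 counts against 301 and 263 for Wnt5b, and the sources used here do not state whether counting used the strand. The 7 undetected ligands with at least 1 count ranged up to 1.70 TPM in replicate 1 and 0.580 TPM in replicate 2.

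Several Wnt genes lie beside each other in the genome. Wnt6 and Wnt10a are 6193 bases apart on chromosome 1, with Wnt6 at 17.2 and 11.4 TPM and Wnt10a at 2.40 and 2.05 TPM. Wnt9a, at 2.38 and 2.58 TPM, has Wnt3a as its neighbour 16175 bases away, which had no counts. Wnt10b and Wnt1, 11706 bases apart on chromosome 15, were both below 2 TPM, as were Wnt9b and Wnt3, 24328 bases apart on chromosome 11.

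Secretion of all these ligands depends on Porcn, which adds their lipid, and on Wls, which carries them to the surface. Porcn was at 43.2 and 37.8 TPM and Wls at 3.66 and 3.32 TPM. The level of Porcn was thus 11.8 times that of Wls in replicate 1 and 11.4 times in replicate 2, or 8.32 and 7.37 times by complete coding transcripts. Porcn was spread over several transcripts, and Porcn-206, a retained intron form of 898 nt, took 26.7% and 31.2% of it.

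Among the 10 Frizzled receptors, 9 were detected, and 6 reached 10 TPM in both libraries. Fzd8 (ENSMUSG00000036904.5) was the highest at 56.1 and 63.3 TPM, with 28.7% and 33.5% of the TPM of the family. Its transcript is 3346 nt long in the files and 5974 nt in the newer GENCODE M21, so a level per length rests on the older model. Fzd8 also had the highest count of the family, 6142 and 7426. Fzd5 followed at 29.8 and 24.5 TPM. Fzd1, Fzd2, Fzd4 and Fzd7 were within 19.9 to 23.0 TPM in both libraries. By small margins Fzd2 was the highest of these and Fzd4 lay above Fzd7 in each library. Fzd1 could not be placed, as it was the lowest of these in replicate 1 but not in replicate 2. Fzd4 too is shorter in the files, with 3685 nt against 6720 nt.

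Lower Frizzled levels were found for Fzd9 at 14.1 and 9.49 TPM, Fzd10 at 3.90 and 3.23 TPM and Fzd6 at 1.38 and 2.06 TPM. Fzd3 was at 0.830 and 1.16 TPM and so missed the threshold in replicate 1. Its transcript Fzd3-202 is 4157 nt long in the files and 12734 nt in GENCODE M21, so this call rests on the older model. Unlike the ligands, no Frizzled gene was at 0, and the complete coding levels of the Frizzled genes were within 0.01 TPM of the gene levels in each library.

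Both Lrp co-receptors were above 25 TPM by gene in each library, and both depended on the transcripts counted. Lrp5 was at 113 and 103 TPM, and its complete coding level was 63.9 and 49.4 TPM. Lrp5-203, annotated as a target of nonsense-mediated decay, took 42.5% and 50.6% of the gene. Lrp6 was at 45.3 and 27.4 TPM by gene and thus higher in replicate 1 on this level per length. By complete coding transcripts it was at 10.5 and 13.6 TPM and thus higher in replicate 2. The gene counts of Lrp6, 4327 and 5136, were also higher in replicate 2 once scaled. Their log2 ratio was -0.096, with an interval of -0.15 to -0.037. The partial transcript Lrp6-203, 722 nt long, held 551 and 214 counts. Lrp5 exceeded Lrp6 by 6.06-fold and 3.63-fold on the complete coding measure.

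R-spondin transcripts came from a pair of genes. Rspo3 (ENSMUSG00000019880.9, mm10 chromosome 10, 29452416 to 29535867, minus strand) was at 29.8 and 21.6 TPM and Rspo1 at 6.86 and 7.06 TPM. Rspo3 thus made up 81.2% and 74.9% of the family. Its log2 ratio between the libraries was 0.52, with an interval of 0.43 to 0.61. Rspo4 had 4 and 12 counts, and Rspo2 none. Rspo3 is 2394 nt long in the files and 3085 nt in GENCODE M21.

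The 3 Lgr receptors for R-spondins were all detected, in an order that depended on the transcripts. By gene, Lgr5 was at 45.5 and 42.2 TPM, Lgr4 at 28.5 and 59.0 TPM and Lgr6 at 1.11 and 1.73 TPM. The non-coding Lgr5-203, 2 exons and 607 nt, took 91.4% and 85.4% of Lgr5. By complete coding transcripts Lgr4 led at 24.7 and 31.4 TPM, with 83.9% and 80.6% of the family. Lgr5 was then 0.148 and 0.185 of Lgr4. Much of the TPM difference of Lgr4 between the libraries lay in the non-coding Lgr4-204, 750 nt long, at 3.66 and 27.5 TPM. By counts, which are not per length, more of it lay in the coding Lgr4-201, with 4058 and 5614 counts. Lgr4-204 held 70.6 and 576 counts. The posterior mean counts of Lgr4-204 were 70.4 with a posterior SD of 26.8 in replicate 1 and 575 with 33.0 in replicate 2.

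**Figure D4:**
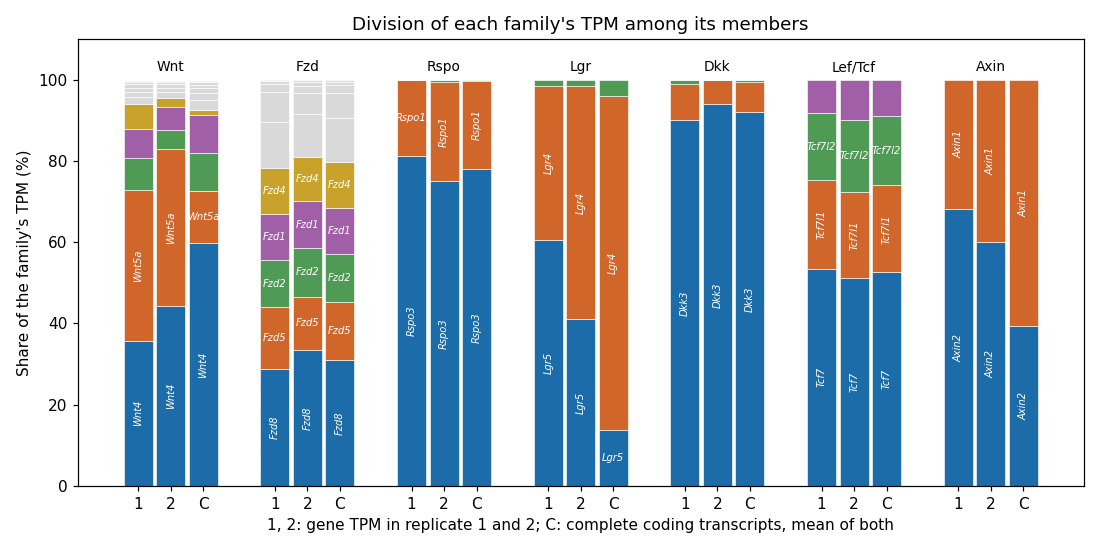
Share of each family's TPM held by its members, for replicate 1 (1), replicate 2 (2) and the mean over complete coding transcripts (C); within each column members are stacked from the highest mean share at the bottom, the 5 highest of a family in colour and the rest in grey. Wnt4 takes over 50% of its family only in the complete coding column and Lgr4 exceeds Lgr5 there and in replicate 2, whereas Rspo3, Dkk3 and Tcf7 lead in all 3.

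Both ligases that remove Frizzled were detected. Znrf3 was at 11.97 and 15.6 TPM and Rnf43 at 5.38 and 6.35 TPM, so Znrf3 was 2.22 and 2.46 times Rnf43. Znrf3-203, which starts further downstream than Znrf3-201 and has a coding part of 2427 nt instead of 2739 nt, took 61.1% and 71.1% of Znrf3. Rnf43-203 took 83.8% and 84.7% of Rnf43.

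Of the Dkk antagonists, which block Lrp co-receptors in most cases, Dkk3 was detected alone. Dkk3, the divergent member of the family, was at 13.2 and 14.1 TPM. Dkk2 was at 1.31 and 0.910 TPM. Dkk1 had 12 counts in replicate 1 and 0 in replicate 2, where 3 counts would correspond to 0.0364 TPM. Kremen1, a receptor for Dkk1 and Dkk2, was at 17.9 and 17.3 TPM.

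All 4 Lef/Tcf factors were detected, and their levels were close in both libraries. Tcf7 was highest at 60.9 and 55.9 TPM, with 53.5% and 51.2% of the family. Tcf7l1, which acts mainly as a repressor, was at 24.7 and 23.0 TPM, and Tcf7l2 at 18.9 and 19.3 TPM. Lef1 was lowest at 9.33 and 10.9 TPM. The order Tcf7, Tcf7l1, Tcf7l2, Lef1 held in each library, and by gene and complete coding transcripts alike. Tcf7 exceeded Lef1 by 6.52-fold and 5.13-fold.

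Lef1 reads were assigned mainly to transcripts from 2 starts. Lef1-201 begins at base 131110471 of chromosome 3 and took 80.7% and 81.0% of the Lef1 level, while Lef1-203 begins 2326 bases further on, with a coding part shorter by 66 codons, and took 14.7% and 16.8%. The windows before both starts are shown because the transcripts differ there. They are the 150 bases before the most upstream RefSeq start at each, on GRCm38.p6, plus strand, at chr3:131110147-131110296 and chr3:131112641-131112790. Capitals mark the GC box GGGCGG, searched on both strands.

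Lef1-201: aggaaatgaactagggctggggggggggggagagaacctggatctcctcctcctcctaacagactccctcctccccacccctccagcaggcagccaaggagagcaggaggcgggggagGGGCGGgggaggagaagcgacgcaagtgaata

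Lef1-203: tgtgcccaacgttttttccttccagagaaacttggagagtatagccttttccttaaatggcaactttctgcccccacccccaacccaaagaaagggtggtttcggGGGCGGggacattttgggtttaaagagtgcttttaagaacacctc

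Each window held 1 GC box, and the G and C content was 64.7% before Lef1-201 and 48% before Lef1-203. In the RefSeq windows from 250 bases before to 50 bases after a start, GGGCGG was found in 33 of 45 windows of the members, or 73.3%, and in 35.7% of all 32851 windows. The set of all windows was not limited to protein-coding genes. Members without a window include Wnt5a, Fzd8, Lrp5, Lgr5 and Rspo3. The TCF/LEF motifs CTTTGAT and CTTTGAA, searched on both strands, were found in neither Lef1 window. They occurred in the windows of 3 of the 35 members with an entry, Dkk1, Wnt11 and Wnt5b, or 8.57%, compared with 9.88% of 27025 genes. The windows of the members had a median G and C content of 67.7%, and all windows 52.7%. These matches are letters in a window and were not measured as binding.

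Between the libraries, 45 members with a summed count of at least 20 could be compared. Of these, 3 were at least 2-fold higher in replicate 1, Wnt11, Wnt10b and Wnt16, which is 6.67% of the members tested, beside 4.76% of all 15814 genes tested. In the other direction Ctnnb1 alone was at least 2-fold higher in replicate 2, or 2.22% beside 2.85% of all genes. These shares are near the background. Wnt10b had 107 and 30 counts and a log2 ratio of 1.97, with an interval of 1.39 to 2.62. Wnt11 had 390 and 200 counts and a log2 ratio of 1.11, with an interval of 0.87 to 1.37. Wnt16 had 14 and 6 counts, and its interval of -0.10 to 3.04 included equality.

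The interval excluded equality towards replicate 1 for 20 members, or 44.4% beside 31.1% of all genes, and towards replicate 2 for 12, or 26.7% beside 30.2%. The median log2 ratio was 0.07 over the members and -0.00057 over all genes. By scaled counts, the members higher in replicate 1 included Wnt5a, Wnt6, Wnt2b, Porcn, Lrp5, Rspo3 and Tcf7. Those higher in replicate 2 included Wnt4, Fzd8, Lgr4, Znrf3, Rnf43, Axin1 and Lef1. By TPM, Wnt5a went the other way, at 80.1 in replicate 1 and 92.4 in replicate 2. Several ratios were small, such as Tcf7 at 0.18 and Fzd8 at -0.12. Scaling to the spike-in RNAs moved the median of all genes to -0.43 and that of the members to -0.36, and left 1 member at least 2-fold apart in each direction, Wnt10b and Ctnnb1. Over all genes the 2-fold calls then numbered 322 towards replicate 1 and 1361 towards replicate 2, in place of 753 and 451. Spike-in scaling shifts ratios towards replicate 2 nearly alike, so ratios towards replicate 1 that are smaller than this shift change direction under it. Those of Wnt5a, Wnt2b, Porcn, Lrp5 and Tcf7 are smaller, while Wnt6 at 0.63 and Rspo3 at 0.52 are larger. The counts of intervals towards each replicate are for TMM scaling and depend on it. Adipose markers summed to more in replicate 1 and fasciculata markers to more in replicate 2. The Y-linked Kdm5d had counts in replicate 1 only. The part of all these in the differences between the libraries was not tested.

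**Figure D5:**
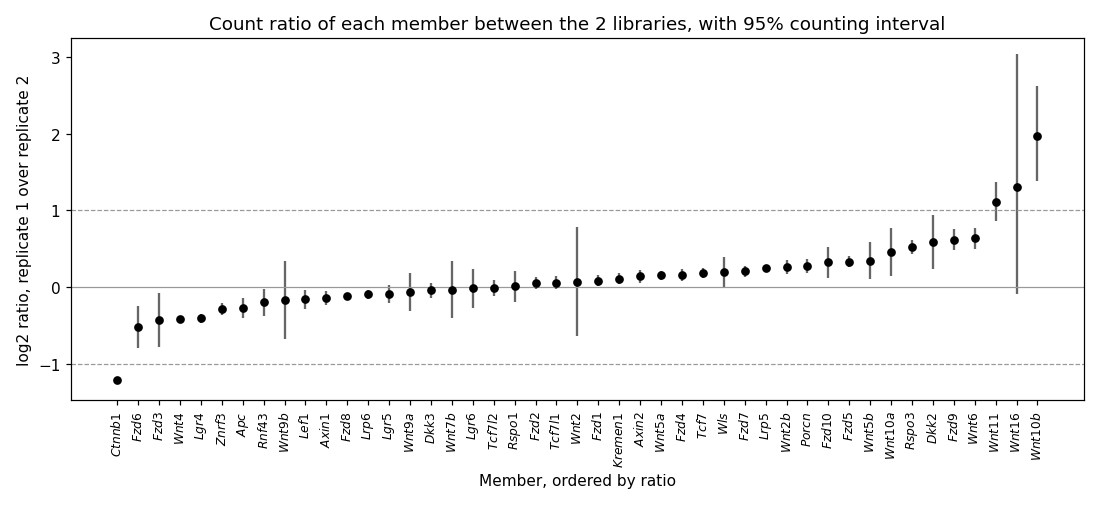
Log2 ratio of scaled counts, replicate 1 over replicate 2, for 45 members in order of the ratio, with the 95% counting interval as a vertical line and dashed lines at 2-fold. Ctnnb1 lies below the lower dashed line at -1.22, Wnt11, Wnt16 and Wnt10b above the upper one, and the other 41 members between them.

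Pathway genes outside the member list were described from lists chosen by function. Of 11 listed genes, secreted antagonists with the co-receptor Kremen2, 6 were detected. Frzb, a secreted Frizzled-related antagonist, was far above the rest at 249 and 433 TPM. Sfrp5 was at 22.8 and 11.4 TPM, Sfrp1 at 13.0 and 15.1 TPM and Notum, which removes the lipid from WNT ligands, at 9.39 and 7.38 TPM. Of 10 tested, 3 were at least 2-fold higher in replicate 1, Sfrp5, Sostdc1 and Wif1, beside 4.76% of all genes. None was in replicate 2, beside 2.85% of all genes. Sostdc1 had only 35 and 10 counts and Wif1 15 and 6, so both calls are limited by depth. Sfrp5 was close to the threshold, with a log2 ratio of 1.05. Frzb was higher in replicate 2, with a log2 ratio of -0.75.

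All 16 listed genes of the cytoplasmic relay were detected, and none was 2-fold apart. Dvl1, which relays the signal from Frizzled, was at 187 and 198 TPM, Gsk3a at 119 and 146 TPM, and Gsk3b, a kinase that marks beta-catenin for degradation, at 16.3 and 21.7 TPM. Of 10 nuclear cofactors and co-repressors 9 were detected, with the co-repressor Tle2 at 695 and 415 TPM and Tle3 at 195 and 278 TPM. Of 11 other receptors and planar polarity genes 10 were detected, with Ryk at 28.9 and 30.7 TPM and Ror2, a receptor for Wnt5a, at 10.1 and 11.7 TPM. None of the 10 and 11 genes of these lists was 2-fold apart. Over all genes, 4.76% were at least 2-fold higher in replicate 1 and 2.85% in replicate 2. At those shares, lists this short would hold few such genes or none.

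All 8 listed feedback targets outside the members were detected, and none was 2-fold apart. At the shares over all genes, 4.76% towards replicate 1 and 2.85% towards replicate 2, a list this short would hold few or none. Ccnd1 was at 110 and 128 TPM and Myc at 75.8 and 84.8 TPM, both of which respond to many signals besides WNT. Among targets with a narrower link to the pathway, Nkd1 was at 24.3 and 23.9 TPM, Apcdd1 at 46.8 and 41.1 TPM and Sp5 at 15.7 and 17.4 TPM. The median log2 ratio of this list was -0.022. Tnfrsf19 was furthest from equality, at 30.05 and 48.51 TPM with a log2 ratio of -0.64. Notum is counted here and among the antagonists.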

How the data were processed

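The deposited gene and transcript tables hold expected counts, TPM and FPKM for 1 library each, made by the authors on mm10 with annotation M4 per the deposited readme files. Aligner and quantifier: not given in the sources used here. Names and transcript structures came from GENCODE M21 by identifier: 178 of 179 member transcripts matched, and 153 of these had the same length in the files. The authors' deposited posterior means and SDs of counts were used for the split between transcripts. Detected means 1 TPM in both libraries. For ratios, expected counts were scaled by TMM in edgeR 4.0.16 (R 4.3.3), with a prior count of 0.5, a minimum summed count of 20 and exact 95% binomial intervals from scipy 1.17.1. Scaling by DESeq2 1.42.0 size factors and by spike-ins was tried, and FPKM replaced TPM as an alternative. The ratio was tested on simulated counts that varied by counting error only, so that test cannot show how far replicate libraries vary. Spike-ins were left out of library sizes. The mm9 junction and contig tables were not used here. Members and lists were chosen with earlier results of these data known, and all members are accounted for, with values for those detected, 2-fold apart or at 0. Whether the libraries came from separate animals is not stated beyond the replicate label. Promoter windows are from RefSeq (GRCm38.p6), with entries for 35 members.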

Additional observations from a re-analysis of the deposited data

How the results depend on the processing

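The number of detected members was 30 to 42 over thresholds of 0.5 and 5 TPM, FPKM, posterior means, single libraries and complete coding transcripts. With replicate 1 alone the median level was 9.33 TPM, the share of Wnt4 35.7% and the median share of the leading transcript 80.7%, and with replicate 2 alone they were 7.06 TPM, 44.4% and 80.3%. Posterior means gave 74.4% for that share. Complete coding transcripts, added after the data were seen, gave a median level of 5.80 TPM, a sum of 755 TPM and shares of 59.7% for Wnt4, 13.7% for Lgr5 and 39.4% for Axin2, in place of 40.1%, 50.8% and 64.1%. Counts, which are not per length, gave shares of 58.8% for Wnt4, 82.6% for Rspo3, 18.3% for Lgr5, 42.6% for Tcf7 and 51.3% for Axin2. Of the members, 4 were at least 2-fold apart. The number was 2 with spike-in scaling, which put the median at -0.36, 9 with no minimum count and 7 at 1.5-fold. Towards replicate 2, log2(TPM + 1), log2(TPM + 0.1) and complete coding counts each gave 2 members in place of 1. On TPM, Lgr4 joined Ctnnb1, at 28.5 and 59.0 TPM. On complete coding counts Wnt2 did, with 6.1 and 14.8 counts. Wnt11 fell under 2-fold with spike-in scaling, Wnt10b did so on log2(TPM + 1), and Wnt16 did so under both. Fold calls of members with few counts, such as Wnt16, are limited by depth. No paired analysis was possible because there is only 1 group.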
